A study of Mus musculus with 6 samples.

Results

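The proteasome subunit genes were followed in sorted CD24- and CD24+ Mvt1 cells. Members were the gene annotations whose symbol starts with Psma to Psmg and a number, and 47 of the 14766 gene annotations in the 6 libraries met that rule. Of these, 46 had enough reads to be tested. Psmb11, the catalytic subunit of the thymus, had 2 reads in all, both in CD24+ replicate 3. One match, Psmc3ip, is a meiotic recombination factor that carries the name of a proteasome gene and is not a subunit, so 45 tested genes remain as subunits, assembly factors, activators or inhibitor. Psma8, the testis form of an alpha subunit, and the assembly chaperone Psmg4 are not among the annotations.

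Mvt1 is a mouse mammary carcinoma line of FVB/N background, established from a tumor that carried c-Myc and Vegf transgenes under the mammary tumor virus promoter. The cells were stained for surface CD24 and separated with a FACSAria sorter into cells without CD24 on the surface (CD24-) and cells with it (CD24+). Each group was then grown as adherent cells in DMEM with serum and antibiotics, with no other treatment, and RNA was taken from 3 plates of each group. Both groups therefore share the line, its transgenes and the medium. No independent sorts or clones are described, so SDs and p-values measure the spread between these plates, which may be technical.

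The proteasome degrades proteins tagged with ubiquitin. Its barrel-shaped core is built of outer alpha rings and inner beta rings, and the beta rings hold the proteolytic active sites. A regulatory cap with a ring of ATPases recognises, unfolds and feeds in the substrate. Cells exposed to interferon gamma, and many immune cells, exchange the catalytic beta subunits for the immunosubunits encoded by Psmb8, Psmb9 and Psmb10, and the resulting immunoproteasome is known for making peptides that are loaded on major histocompatibility complex class I. The transcription factor NFE2L1 is known to raise the standard subunit genes together when proteasome activity falls short.

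Mapped reads ranged from 9046025 in CD24+ replicate 1 to 25692147 in CD24+ replicate 3, of which 71.8% to 74.3% were annotated to a gene. Levels are counts per 1000000 gene reads (CPM), scaled with TMM factors. Cd24a, the gene of the sorted surface protein, had 12.1, 11.5 and 6.99 CPM in the CD24- libraries and 73.3, 85.5 and 72.5 CPM in the CD24+ libraries. It was higher in CD24+ cells by a log2 fold change of 2.91 ± 0.17 (SE; adjusted p = 5.39e-07), in the direction of the labels. CD24- replicates 1 and 2 were closer to each other than any other replicate pair, at 1.71 times the chi-square of pure counting noise against 9.33 to 15.2 times. The line is labelled epithelial, yet Epcam and Cdh1 were nearly without reads (6 and 2 in all), and the summed level of 10 epithelial markers, carried by Krt8 and Krt18, was 1847 to 2042 CPM in CD24- and 761 to 906 CPM in CD24+ libraries. Of the 4 tested, Krt8, Krt18 and Krt19 were lower in CD24+ cells (22.3% of all genes were). Cldn3 was higher (23.8% of all genes were), at a low level (0.396 ± 0.350 against 2.47 ± 0.762 CPM, adjusted p = 0.0041). The summed level of 10 haematopoietic markers, which bear on immunosubunits because immune cells express them, was 0.225 to 0.379 CPM in CD24- and 0.472 to 0.621 CPM in CD24+ libraries, with Laptm5, Cd52, Tyrobp and Cd3e among those at 0. The sum of 8 mesenchymal markers, mostly Vim, was 3609 to 4465 CPM against 4281 to 5083 CPM, and that of 5 endothelial markers 2.25 to 3.98 CPM against 0.681 to 1.89 CPM. Of the 7 mesenchymal markers tested, 6 were higher in CD24+ cells, as were 23.8% of all genes. The part of these differences in the results was not tested. In these bulk samples, fewer cells of a type and less RNA per cell cannot be told apart.

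The proteasome as a whole was expressed at nearly the same level in both groups, with the immunosubunits standing out. All 45 genes together held 5405, 5432 and 6000 CPM in the CD24- libraries and 6027, 5993 and 5415 CPM in the CD24+ libraries, 5612 ± 336 against 5812 ± 344 (SD, n = 3), and the groups overlapped. The 14 core genes summed to 1921 ± 65.9 CPM against 1976 ± 176 CPM, and the 17 cap genes to 2964 ± 262 CPM against 3020 ± 207 CPM. The 3 immunosubunits summed to 35.8 ± 2.74 CPM in CD24- and 113 ± 10.7 CPM in CD24+ cells, and their groups did not overlap. These sums are a description, for which no test was run. The median log2 fold change was 0.13 over the core (-0.00037 without CD24+ replicate 1) and 0.06 over the cap (-0.0019 without CD24+ replicate 2). With single libraries left out the core median lay between -0.00037 and 0.19 and the cap median between -0.0019 and 0.12.

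Gene by gene, 12 of the 46 tested members (26.1%) differed at an adjusted p below 0.05, a smaller share than the 46.1% of all 11125 genes tested. Of these, 9 were higher in CD24+ cells (23.8% of all genes were) and 3 were lower (22.3% of all genes were). With library totals in place of TMM factors the split was 7 higher and 4 lower. The ranges of the groups did not overlap for 15 members, against 57.3% of all genes. Without the immunosubunits and Psmc3ip, 8 of 42 genes differed (5 higher, 3 lower). The differences were also small, with a median absolute log2 fold change of 0.16 over the members and 0.29 over all genes, and 89.1% of the members but 69.6% of all genes lay within 0.5 of zero. Only Psmb8 and Psmb9 passed with an absolute log2 fold change of at least 1, a size that 14.4% of all genes reached with an adjusted p below 0.05.

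**Figure D1:**
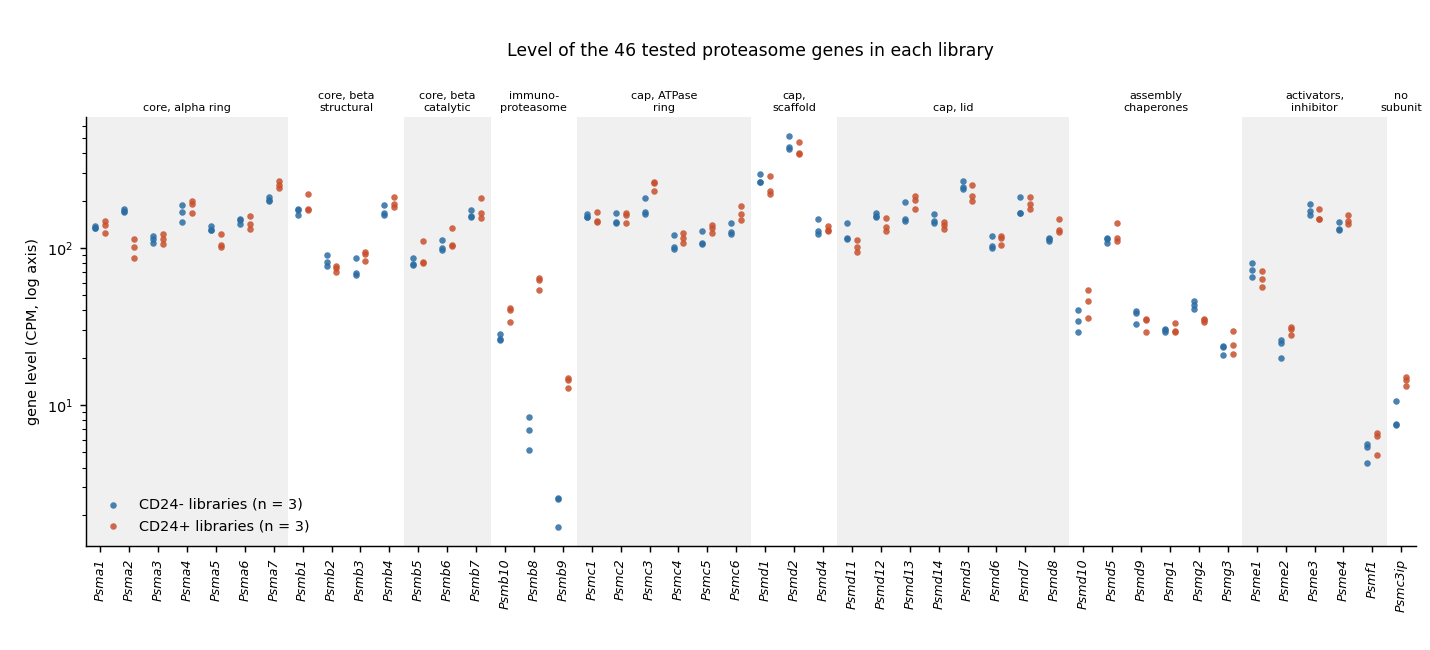
Level of each of the 46 tested genes in each library, in CPM on a log axis, with genes grouped by their place in the proteasome and blue points for the 3 CD24- and red points for the 3 CD24+ libraries. Most core and cap genes have overlapping points in the groups, while the Psmb8 and Psmb9 points of the groups are far apart.

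**Figure D2:**
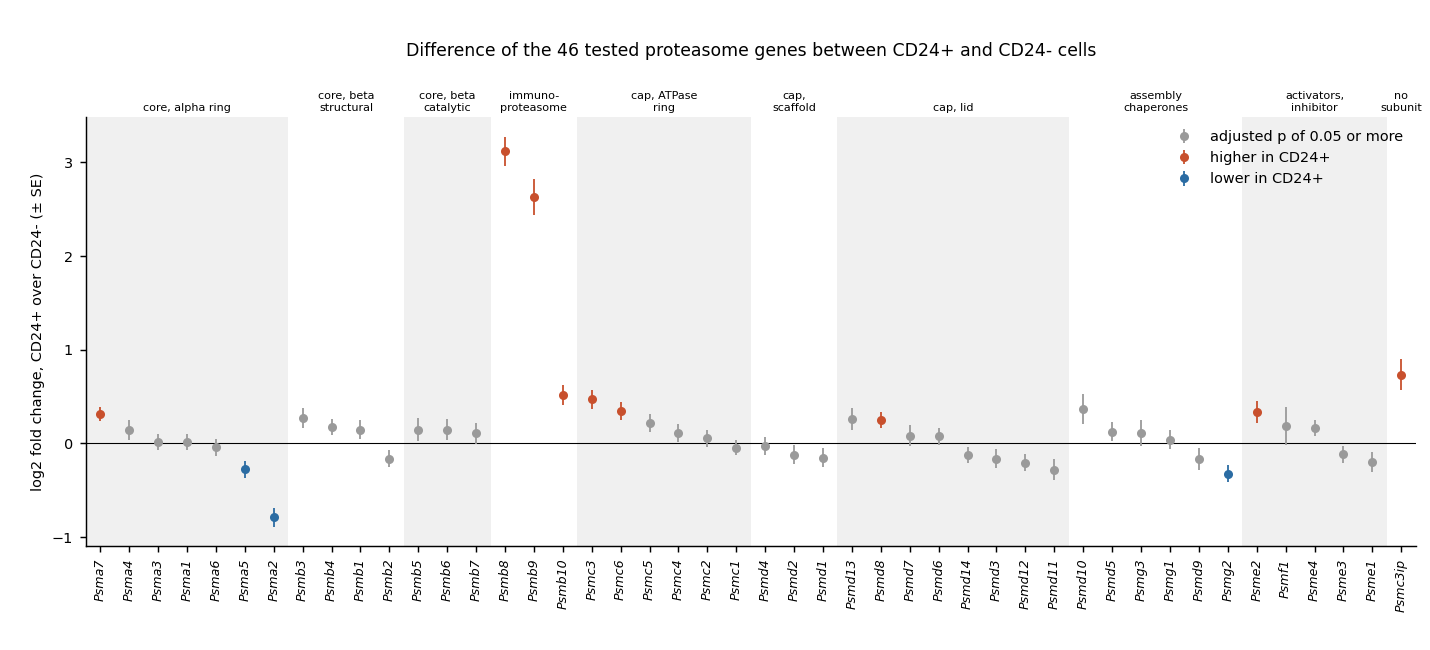
Log2 fold change of CD24+ over CD24- for the same genes, with bars of 1 SE from the edgeR fit and color for genes past the adjusted p of 0.05. Psmb8 (3.12) and Psmb9 (2.63) stand above all other members, and Psma2 (-0.79) is the lowest.

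The 3 tested immunosubunits were all higher in CD24+ cells, a direction called for 23.8% of all genes. Psmb8, which takes the place of Psmb5 in the immunoproteasome, had 6.94, 8.43 and 5.18 CPM in CD24- and 62.6, 53.6 and 64.2 CPM in CD24+ libraries. Every CD24+ library was far above every CD24- library. The log2 fold change was 3.12 ± 0.16 (SE; 8.68-fold, adjusted p = 2.2e-07), the largest among the members except with distinct sequences counted once, where that of Psmb9 was larger (2.38). Psmb9, which takes the place of Psmb6, was near the lower end of what was tested in CD24- cells, with 2.52, 2.56 and 1.69 CPM (15 to 27 reads a library), and had 14.5, 12.9 and 15 CPM in CD24+ cells. It rose by a log2 fold change of 2.63 ± 0.19 (6.18-fold, adjusted p = 2.57e-06), again without overlap, as was so for 57.3% of all genes. Psmb10, which takes the place of Psmb7, had the highest level of the 3 in CD24- cells and changed least. Its levels were 28.2, 26.2 and 25.8 CPM against 41.2, 33.9 and 40.3 CPM, a log2 fold change of 0.52 ± 0.11 (adjusted p = 0.0030). The 3 calls held in the alternatives that gave a value, apart from the minimum absolute log2 fold change of 1, which Psmb10 does not reach, with Psmb8 between 1.06 and 3.30, Psmb9 between 2.38 and 2.73 and Psmb10 between 0.20 and 0.60 on the log2 scale. The lowest Psmb8 and Psmb10 values came from the median coverage estimate, in which a regularizer of 10 draws low genes toward zero, and Psmb9 had no value there.

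What was counted in each library is the number of times a 47-nt sequence occurred. The most frequent coding sequence among reads annotated to the gene is given for Psmb8 and for Psma2, the alpha subunit that fell most. For Psme2, whose matching reads mostly lack its annotation, the sequence was chosen among reads without annotation. These genes carry results reported here. The sequences are written in lower case throughout, as no base is singled out.
Psmb8: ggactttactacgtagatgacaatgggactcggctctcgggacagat
Psma2: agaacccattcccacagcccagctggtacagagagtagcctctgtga
Psme2: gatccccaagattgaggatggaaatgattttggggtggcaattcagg
The Psmb8 sequence occurred 1 time in each CD24- library and 7, 17 and 25 times in the CD24+ libraries, and the Psma2 sequence 41, 47 and 38 times against 14, 58 and 38 times, before any scaling for the larger CD24+ replicates 2 and 3. The Psme2 sequence occurred 41, 37 and 20 times against 22, 52 and 72 times, and its lack of annotation follows from how it was chosen. It matches transcripts of the retrocopy Psme2b as well as those of Psme2, so it cannot be assigned to either.

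Psmb8 and Psmb9 lie beside the peptide transporter genes Tap1 and Tap2 in the class II region of the major histocompatibility complex on chromosome 17, and all 4 were higher in CD24+ cells, a direction called for 23.8% of all genes. In GENCODE coordinates of GRCm38, Psmb9 spans chr17:34181987-34187764 on the minus strand, Tap1 34187553-34197225, Psmb8 34197721-34201454 and Tap2 34203527-34216321, the last 3 on the plus strand. Tap1, which with Tap2 moves peptides into the endoplasmic reticulum, had 8.52, 9.95 and 4.51 CPM in CD24- and 21.1, 19.6 and 22.9 CPM in CD24+ libraries (log2 fold change 1.46 ± 0.22, adjusted p = 0.00043). Tap2 had 37.3, 41.1 and 22.1 CPM against 115, 91.1 and 110 CPM (1.64 ± 0.19, adjusted p = 6.19e-05). Neither pair of groups overlapped, as was so for 57.3% of all genes. Psmb9 and Tap1 run in opposite directions from RefSeq starts 226 bases apart, and their outermost GENCODE ends overlap, so without strand information reads in that stretch cannot be assigned to either. Exact matching to transcripts of a single gene leaves the shared stretch out, and Psmb9 then had 2.60 ± 0.19 and Psmb8 3.12 ± 0.18 on the log2 scale.

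None of the constitutive active-site subunits passed the test (46.1% of all genes did). Psmb5 had 78.8, 86.0 and 78.4 CPM in CD24- and 110, 81.8 and 80.1 CPM in CD24+ libraries (log2 fold change 0.15 ± 0.12, adjusted p = 0.34). Psmb6 had 96.7, 99.7 and 112 CPM against 135, 103 and 105 CPM (0.15 ± 0.11, adjusted p = 0.32), and Psmb7 156, 159 and 174 CPM against 209, 166 and 156 CPM (0.11 ± 0.11, adjusted p = 0.44). In all 3, CD24+ replicate 1, the shallowest library, was the highest of the 6, and the other CD24+ libraries lay within or next to the CD24- range. Without it the log2 fold changes were -0.011 for Psmb5 and -0.030 for Psmb7, while that of Psmb6 did not turn in sign.

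Levels of different genes were compared per length of coding region, as reads per kilobase of read start positions scaled to gene reads like CPM, with reads shared with near-identical copies kept. On this scale the CD24- medians were 304 for the core, 166 for the cap, 49.3 for the assembly chaperones and 11.6 for the immunosubunits. Psmb8 stood at 6.48 ± 1.35% of the level of Psmb5 in CD24- cells and at 52.3 ± 7.67% in CD24+ cells (SD, n = 3). The single CD24+ libraries gave 45.7, 50.6 and 60.7%, and the CD24- libraries 6.82, 7.63 and 4.99%. Of 8636 coding reads of Psmb5, 1946 matched no other gene, against 2100 of 2587 for Psmb8. The percentage of Psmb5 therefore rests on shared reads being kept. Psmb9 stood at 1.39 ± 0.112% of Psmb6 in CD24- and 9.27 ± 1.29% in CD24+ cells, with no overlap. Psmb9 had 389 coding reads in all libraries together, and only 15 to 27 annotated reads in a CD24- library. The small SD in CD24- cells is therefore no measure of precision. Psmb10 stood at 14.1 ± 1.49% of Psmb7 in CD24- and 18.2 ± 3.77% in CD24+ cells. Here the groups overlapped, since CD24+ replicate 1 had 15.1% and CD24- replicate 1 had 15.7%. RNA levels were measured, not the subunits built into proteasomes. Exact matching also leaves out reads over strain variants. How many reads each gene lost in this way was not measured, so percentages between genes are approximate.

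**Figure D3:**
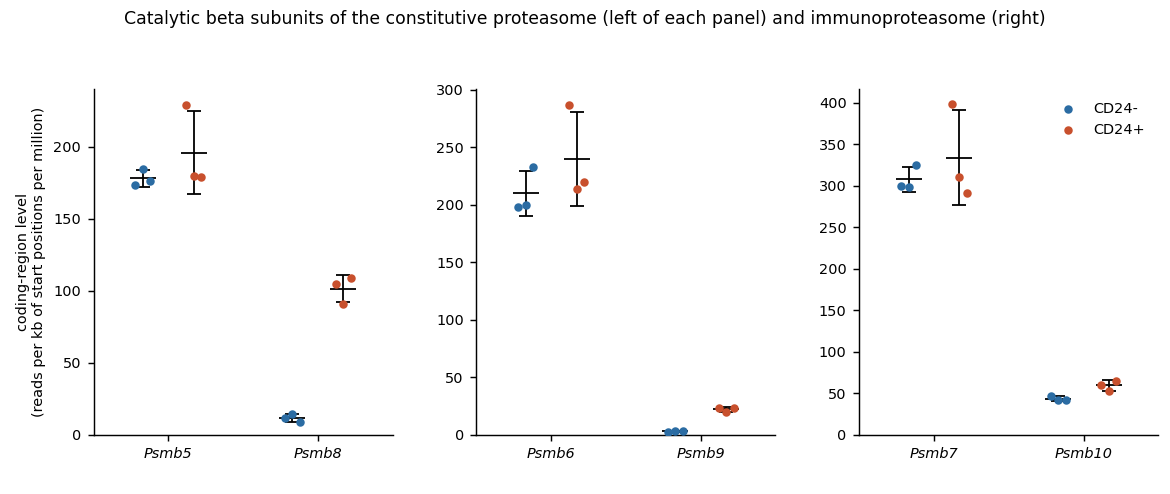
Coding-region level of each constitutive catalytic subunit beside the immunosubunit that replaces it, per library, with black lines for the mean and SD of 3 libraries and axes that start at 0. Psmb8 reaches 52.3% of the Psmb5 level in CD24+ cells, with reads shared with other genes kept. Psmb9 stays at 9.27% of Psmb6 and Psmb10 at 18.2% of Psmb7. Reads over strain variants are left out, to an extent not measured for each gene.

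Promoter windows from RefSeq (GRCm38.p6, 250 bases before to 50 bases after a start) were found for 39 of the members. They are shown for Psmb8 and Psmb9, which rose most, for Psmb5, the constitutive counterpart of Psmb8, and for Psma2, which fell most. Only the 250 bases before the start are printed, and capitals mark matches, on either strand, to TGANNNNGC, the core of the antioxidant response element that NFE2L1 and NFE2L2 bind or to CCAAT, the NF-Y box. The core of the interferon-stimulated response element was searched as well.
Psmb8, before the RefSeq start, chr17:34197945-34198194, plus strand: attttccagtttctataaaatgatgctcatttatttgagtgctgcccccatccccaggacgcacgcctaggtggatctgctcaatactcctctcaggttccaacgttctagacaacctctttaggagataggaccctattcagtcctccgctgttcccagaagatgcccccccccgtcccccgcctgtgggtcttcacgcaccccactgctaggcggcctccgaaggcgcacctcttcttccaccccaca
Psmb9, before the RefSeq start, chr17:34187331-34187580, minus strand: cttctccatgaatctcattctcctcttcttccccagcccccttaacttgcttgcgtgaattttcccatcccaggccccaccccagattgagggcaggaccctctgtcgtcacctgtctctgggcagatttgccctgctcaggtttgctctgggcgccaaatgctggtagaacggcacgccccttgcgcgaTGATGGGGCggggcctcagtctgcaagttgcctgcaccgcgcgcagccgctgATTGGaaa
Psmb5, before the RefSeq start, chr14:54617996-54618245, minus strand: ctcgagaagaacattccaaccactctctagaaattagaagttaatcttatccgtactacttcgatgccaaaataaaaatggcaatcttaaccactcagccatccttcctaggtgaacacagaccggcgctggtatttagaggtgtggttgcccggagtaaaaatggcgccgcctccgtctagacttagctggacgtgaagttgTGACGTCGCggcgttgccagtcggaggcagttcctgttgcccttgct
Psma2, before the RefSeq start, chr13:14612992-14613241, plus strand: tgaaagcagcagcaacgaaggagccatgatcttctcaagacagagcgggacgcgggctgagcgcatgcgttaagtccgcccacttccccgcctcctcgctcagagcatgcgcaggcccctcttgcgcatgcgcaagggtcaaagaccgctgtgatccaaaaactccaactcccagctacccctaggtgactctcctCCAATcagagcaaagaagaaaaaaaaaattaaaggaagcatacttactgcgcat
The printed Psmb8 stretch held none of the 3 motifs, although its whole window holds TGANNNNGC, in a match within the 50 bases after the start. The other stretches held matches, the Psmb9 stretch TGANNNNGC and CCAAT, the Psmb5 stretch TGANNNNGC and the Psma2 stretch CCAAT. The Psmb9 stretch also holds the start of Tap1 on the other strand. The stretches of Psmb8 and Psmb9 lie inside the outermost GENCODE spans given above, downstream of the GENCODE starts, and the sequence before those starts was not searched. Over whole windows, TGANNNNGC was found in 22 of 39 members (56.4%) and in 45.0% of all 27025 genes with a window, and CCAAT in 14 members (35.9%) and 41.1% of all genes. The interferon-stimulated response element core was found in 4 members (10.3%), which were Psmb3, Psmd4, Psmd9 and Psme1, and in 3.99% of all genes. A match describes the letters and is not a binding site.

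The outer alpha ring, which gates the entrance of the core, held 3 calls, a share (42.9%) near the 46.1% of all genes. Of its 7 genes, Psma7 was higher, Psma2 and Psma5 were lower and 4 did not pass, with a median log2 fold change of 0.02. Psma2 had 170, 171 and 176 CPM in CD24- and 114, 101 and 86.3 CPM in CD24+ libraries. It fell by 0.79 ± 0.10 on the log2 scale (adjusted p = 0.00012), the largest fall among the members, and the groups did not overlap. Apart from the minimum absolute log2 fold change of 1, the call held in all 14 alternatives that gave a value (-0.89 to -0.48), and reads matching its transcripts and those of no other gene gave -0.78 ± 0.11. Psma7 had 200, 201 and 210 CPM against 266, 253 and 242 CPM (0.31 ± 0.07, adjusted p = 0.0062). It passed in 13 of 15 alternatives, the exceptions being distinct sequences counted once (-0.042, adjusted p = 0.86) and the median coverage estimate (0.19, adjusted p = 0.052). Psma5, named after its values were seen, fell less, by 0.28 ± 0.09 (adjusted p = 0.029), and passed in 8 of 15 alternatives. It missed the threshold without any single library other than CD24+ replicate 2, at adjusted p = 0.058 to 0.11. Alpha subunits are present in the core in equal number, and their coding-region levels in CD24- cells ran from 221 for Psma1 to 737 for Psma3, of whose coding reads most also matched other genes.

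None of the 7 standard beta genes passed (46.1% of all genes did), with Psmb3 (0.27 ± 0.11, adjusted p = 0.064) and Psmb2 (-0.16 ± 0.09, adjusted p = 0.16) at the ends. Both are subunits of the beta ring without an active site of their own. Psmb3 had 68.8, 67.6 and 86.2 CPM in CD24- and 93.9, 91.7 and 82.8 CPM in CD24+ libraries, and these overlapped. It passed in 2 of 15 alternatives, without CD24- replicate 3 (0.39, adjusted p = 0.0051) and with no filter on low counts (adjusted p = 0.048). Psmb2 had 81.0, 89.9 and 76.6 CPM against 75, 76.2 and 70.5 CPM, which did not overlap.

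In the regulatory cap, 3 of 17 genes were higher in CD24+ cells (17.6%, against 23.8% of all genes) and none was lower. Of the 6 ATPases of the base, Psmc3 and Psmc6 rose. Psmc3 had 165, 170 and 208 CPM in CD24- and 263, 258 and 231 CPM in CD24+ libraries (0.47 ± 0.10, adjusted p = 0.0037), without overlap. With each distinct sequence counted once, neither Psmc3 (0.12, adjusted p = 0.54) nor Psmc6 (0.14, adjusted p = 0.52) passed. Psmc6, named after its values were seen, had 122, 127 and 144 CPM against 186, 165 and 151 CPM (0.35 ± 0.10, adjusted p = 0.017). Psmc6 also missed the threshold without CD24- replicate 1 (adjusted p = 0.082), CD24- replicate 2 (0.063) or CD24+ replicate 1 (0.059). At the other end, Psmc1 had 157, 158 and 164 CPM against 148, 169 and 147 CPM (-0.05 ± 0.08, adjusted p = 0.67).

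The base scaffold includes Psmd2, the most abundant member by CPM, and the ubiquitin receptor Psmd4. None of its 3 genes passed (46.1% of all genes did). Psmd1 had the lowest value of the 3 (264, 261 and 294 CPM against 220, 285 and 232 CPM, -0.15 ± 0.11, adjusted p = 0.27), and Psmd4 the highest (122, 129 and 153 CPM against 138, 131 and 128 CPM, -0.02 ± 0.09, adjusted p = 0.85). Without CD24+ replicate 2, Psmd1 passed (-0.28, adjusted p = 0.033).

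The lid removes ubiquitin through its metalloprotease Psmd14, which did not pass (-0.12 ± 0.08, adjusted p = 0.25). Of the 8 lid genes only Psmd8 was called (12.5%, against 46.1% of all genes). Psmd8 had 115, 116 and 111 CPM in CD24- and 152, 126 and 130 CPM in CD24+ libraries (0.25 ± 0.09, adjusted p = 0.042). It was named after its values were seen, and it passed in 4 of 15 alternatives. Leaving out any library other than CD24+ replicate 2 made it miss the threshold, at adjusted p = 0.078 to 0.11. The ends of the lid were Psmd13 (148, 153 and 195 CPM against 215, 203 and 177 CPM, 0.26 ± 0.12, adjusted p = 0.090) and Psmd11 (115, 116 and 143 CPM against 102, 112 and 93.7 CPM, -0.28 ± 0.11, adjusted p = 0.056). Psmd13 passed without CD24- replicate 3 (0.40, adjusted p = 0.0070) and Psmd11 without CD24+ replicate 2 (-0.36, adjusted p = 0.032). Psmd11 passed in 4 of 15 alternatives, the others being DESeq2 (adjusted p = 0.043), library totals (0.039) and no filter on low counts (0.047). Only 54.3% of the reads annotated to Psmd13 lay within its GENCODE transcripts. With reads matching its transcripts it passed, at 0.36 (adjusted p = 0.027) for those of a single gene and 0.40 (adjusted p = 0.020) with shared reads kept.

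The assembly chaperones, which put core and base together and leave the finished particle, had a lower median coding-region level than core and cap (49.3 in CD24- cells). Of 6 tested, Psmg2 was lower (16.7%, against 22.3% of all genes) and none was higher, with a median of 0.08. Psmg2, which pairs with Psmg1 to build the alpha ring, had 45.8, 41.0 and 43.6 CPM in CD24- and 35.5, 33.8 and 35.0 CPM in CD24+ libraries. It fell by 0.32 ± 0.09 (adjusted p = 0.014), and it missed the threshold without CD24- replicate 1 (adjusted p = 0.070), with each distinct sequence counted once (0.066) and with all reads matching its transcripts (0.087). Psmg1 did not pass (0.04 ± 0.10, adjusted p = 0.76). Psmd10, a chaperone of the ATPase ring also known as gankyrin, had 34.2, 40.4 and 29.2 CPM against 53.6, 36.0 and 46 CPM (0.37 ± 0.16, adjusted p = 0.083). It passed without CD24+ replicate 2 (0.51, adjusted p = 0.018) or without CD24- replicate 2 (0.49, adjusted p = 0.042), and with no filter on low counts (adjusted p = 0.047) or the median coverage estimate (0.034), 4 of 15 alternatives in all.

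Among the activators that can replace the cap, the interferon-inducible pair Psme1 and Psme2 differed in call. They form the PA28 ring at the end of the core. Psme2 had 26.1, 24.8 and 20.1 CPM in CD24- and 31.3, 28 and 30.7 CPM in CD24+ libraries (0.34 ± 0.12, adjusted p = 0.043). It passed in 5 of 15 alternatives and missed the threshold without CD24- replicate 2 or 3 or without CD24+ replicate 1 or 3, at adjusted p = 0.071 to 0.14. Psme1 had 79.7, 71.9 and 65.6 CPM against 70.9, 56.1 and 63.5 CPM (-0.20 ± 0.11, adjusted p = 0.16), and its groups overlapped. The difference between these log2 fold changes was not tested. Most reads that match Psme2 were not counted under its name. The retrocopy Psme2b shared nearly all of the sequence, with 9914 matching reads of which 9 matched no other gene. Of 11787 reads that match Psme2 transcripts, 1885 were annotated to Psme2 and 9717 carried no annotation. With all matching reads, those shared with Psme2b included, the level was 158, 156 and 127 CPM against 206, 153 and 183 CPM, which overlapped (0.29 ± 0.12, adjusted p = 0.089). Psme3, which forms the nuclear ring, Psme4 and the inhibitor Psmf1 did not pass under their symbols, with log2 fold changes of -0.12 ± 0.09, 0.16 ± 0.08 and 0.19 ± 0.20.

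Other members had matching reads outside their annotation too. Over the 46 members, the median share of transcript-matching reads that carried the annotation of the gene was 97.8%. It was at least 90% for 31 members and under 70% for 8, which were Psmf1, Psme2, Psma3, Psmd11, Psmc3ip, Psmb3, Psma5 and Psmb5. For Psma3, 7827 of 17859 matching reads carried its annotation, and for Psmb5 6015 of 9268. With all matching reads the log2 fold changes were 0.04 ± 0.09 for Psma3, 0.15 ± 0.11 for Psmb5 and -0.28 ± 0.09 for Psma5. Psmc3ip overlaps its neighbour Mlx and had 0.73 ± 0.17 under its annotation (adjusted p = 0.0047) and 0.39 ± 0.14 with all matching reads (adjusted p = 0.048).

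**Figure D4:**
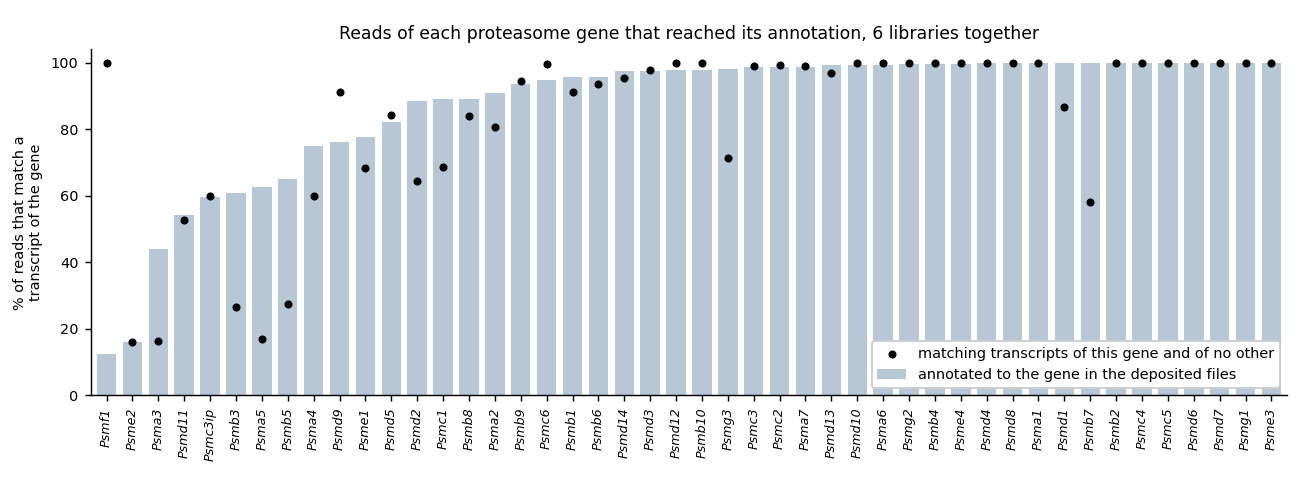
Share of the reads matching transcripts of each tested member that carried the annotation of that gene (bars) or that matched no other gene (points), over the 6 libraries. At the left end, Psmf1 (12.4%) and Psme2 (16%) kept few of their reads, while 31 members kept at least 90%.

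Genes that act with the proteasome were compared in the same fit. The interferon and class I antigen processing genes were mostly higher in CD24+ cells, with 8 of 10 tested higher (23.8% of all genes were), none lower and a median log2 fold change of 0.57. They included the class I light chain B2m (155, 177 and 126 CPM against 387, 262 and 330 CPM, 1.09 ± 0.15, adjusted p = 0.00024), the transcription factor Irf1 (0.74 ± 0.10, adjusted p = 0.00013) and, as the smallest difference called, the peptide-trimming protease Erap1 (81.0, 79.4 and 80.2 CPM against 116, 89.9 and 97.4 CPM, 0.33 ± 0.10, adjusted p = 0.021). With each distinct sequence counted once, B2m (0.20, adjusted p = 0.52), H2-K1 (0.14, adjusted p = 0.51) and Tapbp (0.17, adjusted p = 0.25) lost their calls and H2-D1 turned in sign (-0.16). Tapbp also missed the threshold without CD24+ replicate 1 (adjusted p = 0.053) or 3 (0.075). Erap1 missed the threshold without CD24- replicate 1 or 2 or CD24+ replicate 1 or 3, at adjusted p = 0.053 to 0.067. Irf9, a transcription factor of the interferon response, did not pass (0.21 ± 0.25, adjusted p = 0.52). This list shares Tap1 and Tap2 with the genes beside Psmb8 above.

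The NFE2L1 axis comprised the factors that drive standard subunit genes and the enzymes that process NFE2L1, and 3 of its 10 tested genes were higher and 2 lower, with a median of -0.04. The share called, 50%, was near the 46.1% of all genes. Nfe2l1 itself had 404, 418 and 401 CPM in CD24- and 641, 493 and 620 CPM in CD24+ libraries (0.52 ± 0.10, adjusted p = 0.0021), a call lost when distinct sequences were counted once (0.24, adjusted p = 0.21). Mafk, a small partner of NFE2L factors, had 106, 112 and 148 CPM against 78.7, 73.3 and 82.2 CPM (-0.64 ± 0.12, adjusted p = 0.0018), and passed in all 15 alternatives other than the minimum absolute log2 fold change of 1. The other calls, Nfe2l2 and Ngly1 (higher) and Syvn1 (lower), were each lost without CD24- replicate 1 or 2 or CD24+ replicate 2 or 3, at adjusted p = 0.054 to 0.19, and Ngly1 also without CD24+ replicate 1 (0.095). Nfe2l2 passed in 8 of 15 alternatives, Ngly1 in 3 of 14 and Syvn1 in 4 of 14, and with DESeq2 the latter pair had adjusted p = 0.12 and 0.055. Of the 31 standard core and cap genes, 4 were higher (23.8% of all genes were) and 2 lower (22.3% of all genes were) in the same fit. Their share called, 19.4%, was below the 46.1% of all genes.

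Of 17 tested partners of the proteasome, 1 was higher (23.8% of all genes were) and 7 were lower (22.3% of all genes were). The share called in either direction (47.1%) was near the 46.1% of all genes, with most of these calls lower. Adrm1 and Shfm1, the cap subunits that do not carry the Psm name, did not pass. Adrm1 had 117, 113 and 130 CPM against 132, 140 and 128 CPM (0.15 ± 0.08, adjusted p = 0.16), and Shfm1 83.0, 92.8 and 84.1 CPM against 99.9, 81.8 and 81.4 CPM (0.01 ± 0.10, adjusted p = 0.94). The core maturation factor Pomp was lower (101, 107 and 110 CPM against 91.9, 95.1 and 78.7 CPM, -0.27 ± 0.09, adjusted p = 0.037), a call lost without any CD24- library or CD24+ replicate 3 (adjusted p = 0.060 to 0.13). Zfand2a, a heat- and arsenite-inducible factor of the cap, fell from 102, 106 and 146 CPM to 40.6, 37.4 and 38.4 CPM (-1.61 ± 0.13, adjusted p = 6.17e-06). The fall was smaller with shared matching reads kept (-0.88) and in the median coverage estimate (-0.71). Uchl5, a deubiquitinase docked on Adrm1, also fell (-1.13 ± 0.09, adjusted p = 4.18e-06), as did the ubiquitin shuttles Ubqln1, Ubqln2 and Ubqln4 and another cap deubiquitinase, Usp14. The Usp14 call was lost without CD24- replicate 1 or CD24+ replicate 3 (adjusted p = 0.062 in both), and the Ubqln4 call without any library other than CD24+ replicate 2. Zfand5, which stimulates the cap, rose from 64.9, 61.3 and 54.0 CPM to 86.2, 85.1 and 91.7 CPM (0.55 ± 0.09, adjusted p = 0.00074).

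Among the 5 tested genes that supply ubiquitin, the activating enzymes Uba1 and Uba6 were lower (40%, against 22.3% of all genes). The ubiquitin genes Ubb and Rps27a did not pass. Uba1, the main activating enzyme, had 537, 538 and 554 CPM in CD24- and 314, 320 and 299 CPM in CD24+ libraries (-0.80 ± 0.07, adjusted p = 1.14e-05). The groups did not overlap for either enzyme, as was so for 57.3% of all genes.

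**Figure D5:**
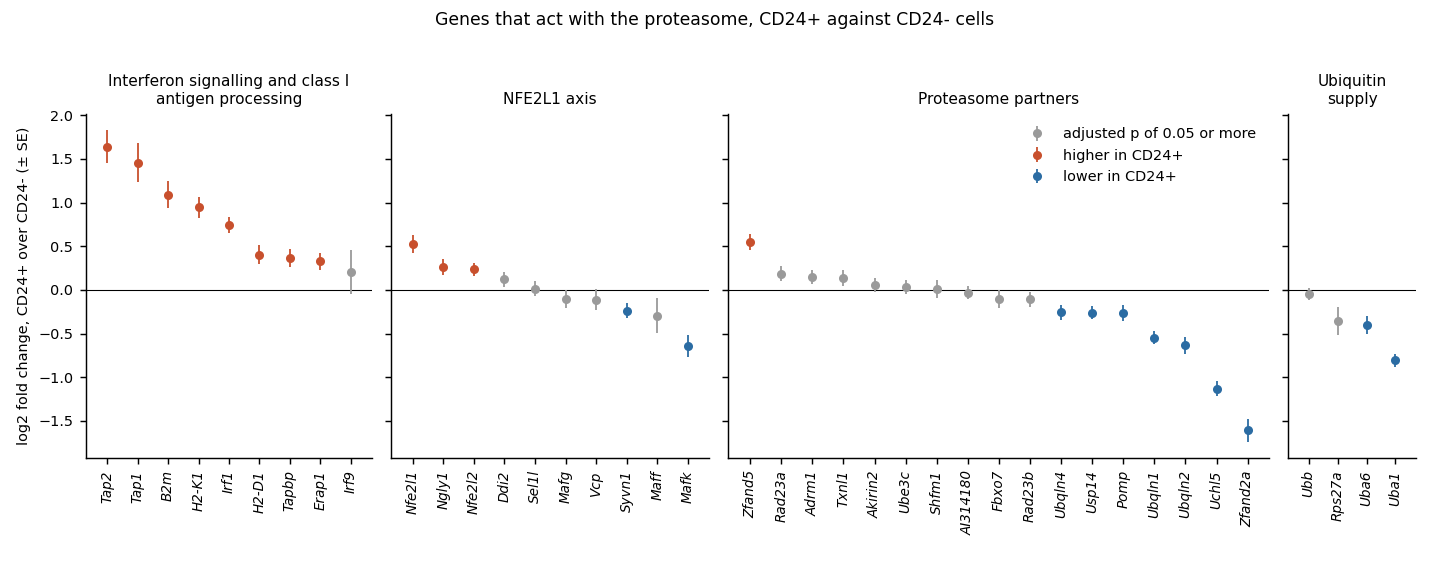
Log2 fold change of CD24+ over CD24- for tested genes of the 4 lists, with bars of 1 SE and color for genes past the adjusted p of 0.05. The antigen processing genes drawn lie above zero, from Tap2 (1.64) down to Irf9 (0.21), and the partners extend down to Zfand2a (-1.61).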

How the data were processed

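Messenger RNA libraries (TruSeq RNA v2, which keeps no strand, from RNA with a RIN over 9) were made from 3 plates per group. Per the methods, the authors trimmed single-end reads to 47 nt, collapsed identical reads, matched them exactly to the mouse genome and assigned annotations, with a hierarchy to choose among several. They deposited the count of every mapped sequence per library, not normalized and not pooled. The build is mm9 per the labels, and neither the mapper nor the annotation's origin is named in the sources read. Exact matching leaves out most reads over exon junctions and over strain variants.

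Counts were summed per annotation. Reads with no annotation (16.9% to 20.2%), repeats (7.56% to 10.2%) and small RNA (0.355% to 0.468%) stayed out of totals and tests. CD24+ was compared with CD24- over all genes with edgeR 4.0.16 (quasi-likelihood test, TMM, filterByExpr, Benjamini-Hochberg adjustment, threshold 0.05, two-sided, R 4.3.3). SE is the absolute log2 fold change divided by the square root of the F statistic. Reads were also matched exactly to GENCODE M21 transcripts (GRCm38), which gave coding-region levels and gene coordinates. Mm9 and GRCm38 coordinates were not mixed. On counts simulated for this comparison with 100 genes changed 2-fold and 100 changed 4-fold, the edgeR step on 11045 genes recovered 100% of each. The simulation used a single common dispersion for all genes and changed only genes above a minimum level. It does not show how often smaller changes, such as those of most members, would be found.

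Alternatives were DESeq2 1.42.0, no TMM, no filter, at least 10 CPM in 3 libraries, each distinct sequence counted once, reads matching a single gene, the median coverage estimate after the study's method (quantile normalization, regularizer of 10, limma 3.58.1), a replicate block, each library left out, and an absolute log2 fold change of at least 1. Reads matching transcripts with shared reads kept, and the alternatives for single context genes, were added after the data were seen. Named were Psmb5 to Psmb10, Psme1, Psme2, the highest and lowest log2 fold change of each class and every called member with an absolute log2 fold change of at least 1, and from the context lists Adrm1, Shfm1, Pomp, Nfe2l1 and the called genes with the highest and lowest values. Irf1, Irf9, B2m, Tap1, Uchl5, Psmd14 and further members outside this rule were named after their values were seen. Some genes of the context and marker lists entered the counts and sums over their lists but are not reported here by name. Members and lists were chosen with earlier results of these data known.

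Same-numbered CD24- and CD24+ libraries did not deviate together (correlations of 0.013, -0.27 and -0.32), so replicate numbers were not used to pair them.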

Additional observations from a re-analysis of the deposited data

Results flagged for a closer look

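Reads of the inhibitor Psmf1 fell mostly outside the annotation by gene symbol and were higher in CD24+ cells there. Of 3146 reads that match Psmf1 transcripts, 391 were annotated to the symbol and 2716 to an entry that names a transcript accession in place of a gene. That entry had 30.7, 32.1 and 35.2 CPM in CD24- and 42.6, 45.2 and 40.0 CPM in CD24+ libraries, without overlap, and a log2 fold change of 0.38 ± 0.10 (SE, adjusted p = 0.0088 with edgeR). Psmf1 under its own symbol had 0.19 ± 0.20 (adjusted p = 0.48), and all reads matching its transcripts gave 0.37 ± 0.10 (adjusted p = 0.015).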

How the results depend on the processing

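Of 357 values of 24 named members under the alternatives, 296 kept direction and side of the threshold, 36 lost the threshold, 14 gained it and 11 turned in sign. Cd24a, Psmb8, Psmb9, Psmb10, Psma2 and Psmc3ip kept their calls wherever a value was given, apart from the minimum absolute log2 fold change of 1, under which Psmb10, Psma2 and Psmc3ip were not called. Counting each distinct sequence once caps genes whose read positions are nearly all filled, and the cause of its effect was not tested. It called 3697 of 11078 genes, 5 members (4 higher, 1 lower) and 12 context genes against 23, and gave class medians of -0.0067 (activators), -0.087 (cap), -0.047 (core) and 2.36 (immunosubunits). Under it Psma7 (-0.042), Psmb3 (-0.032), Psmb5 (-0.0049), Psmb6 (-0.014), Psmb7 (-0.0042), Psme2 (-0.0067), Adrm1 (-0.034), Shfm1 (-0.34) and H2-D1 (-0.16) turned in sign. The calls of Psma5, Psmc3, Psmc6, Psmd8, Psmg2, B2m, H2-K1, Tapbp, Nfe2l1, Nfe2l2, Syvn1, Pomp, Usp14, Ubqln4 and Uba6 were lost under it. The median coverage estimate tested fewer genes and called 1921 of 4515 genes and 15 context genes, with medians of 0.00092 (activators) and 0.63 (immunosubunits, without Psmb9), and turned Psmb5 (-0.0025) and Psmb7 (-0.026). The filter at 10 CPM left out Psmf1, and the activator median was then 0.020. A minimum absolute log2 fold change of 1 left 2 members. Reads of a single gene turned Adrm1 (-0.21), DESeq2 Shfm1 (-0.0048) and library totals Shfm1 (-0.015).

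With each library left out, 8 to 17 members, 15 to 21 context genes and 4069 to 5358 genes were called, and medians ranged from 0.078 to 0.22 (activators), from -0.00037 to 0.19 (core) and from -0.0019 to 0.12 (cap, the low without CD24+ replicate 2). Psmd4 ranged from -0.091 to 0.076 (the latter without CD24- replicate 3), Shfm1 from -0.095 to 0.061, Psmb5 from -0.011 to 0.22 and Psmb7 from -0.030 to 0.18, the lows of these 3 without CD24+ replicate 1. Shfm1 was also below zero without CD24- replicate 1 (-0.021) or 3 (-0.014). The core median thus rests on CD24+ replicate 1. The causes were not tested.

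Replicate numbers do not pair the libraries, and no library deviated most like the one that shares its number. With the replicate block 9 members (7 higher, 2 lower) and 4493 genes were called. Depth limits Psmb9, with 15 to 27 reads in a CD24- library, and Psmb11, with 2 reads in all.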

Other observations

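The assembly chaperone Psmg4 is not among the annotations, and the 790 reads that match its transcripts carried none. They came to 10.1, 10.4 and 10.1 CPM in CD24- and 14.3, 10.4 and 11.5 CPM in CD24+ libraries, which overlapped, with a log2 fold change of 0.21 ± 0.16 (adjusted p = 0.38 with edgeR). For the testis alpha subunit Psma8, 1 read in all matched. Of the 1548 reads that match Psmb11 transcripts, 8 matched no other gene.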
